A study of Mus musculus with 12 samples.

Results

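The comparison described here is the loss of Sel1L from adipocytes in mice kept at room temperature, read in brown adipose tissue RNA on 6 of the study's 12 microarrays. The 3 knockout arrays hold RNA from mice with a floxed Sel1L gene (Sel1L f/f) and the Adiponectin-Cre transgene B6.FVB-Tg(Adipoq-cre)1Evdr/J, and the 3 wildtype arrays hold RNA from Sel1L f/f littermates without it. All were on the C57BL/6J background and were fasted for 5 h, so floxed alleles and the fast were common to both groups, and no source used here gives the age of the mice. Arrays were placed in their groups by title, and wildtype replicate 3, whose source name gives 4 °C, was kept at room temperature as titled. Its log2 values for Ppargc1a and Cebpa were 8.17 and 8.98. Wildtype replicates 1 and 2 at room temperature read 8.08 and 7.26 for Ppargc1a and 8.87 and 8.62 for Cebpa. The wildtype arrays at 4 °C read 11.49, 11.31 and 10.94 for Ppargc1a and 6.19, 5.95 and 6.70 for Cebpa. On these 2 genes, picked after their values were seen, replicate 3 lay with the room-temperature wildtype. The other 6 arrays hold the same genotypes after 5 h of fasting at 4 °C and serve as a second comparison. The Adiponectin promoter drives Cre in adipocytes, so blood vessel, immune and precursor cells in the tissue keep an intact gene. The submitters' design text speaks of isolated brown adipocytes, while every sample label and the protocol speak of snap-frozen brown adipose tissue. In such bulk RNA, fewer cells of a type and less RNA per cell cannot be told apart.

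Sel1L is the adaptor that holds the ubiquitin ligase Hrd1, encoded by Syvn1, to its clients in the membrane of the endoplasmic reticulum (ER). Together they retrotranslocate misfolded proteins from the ER to the cytosol for degradation by the proteasome, a route called ER-associated degradation. When unfolded proteins build up, the sensors Ire1 (Ern1), Perk (Eif2ak3) and Atf6 start the unfolded protein response, which raises chaperones, glycosylation enzymes and transport proteins and, through Perk and Atf4, an integrated stress response of amino acid and one-carbon genes. Brown adipocytes burn fatty acids in mitochondria that are uncoupled by Ucp1, and the study's title places Sel1L and Hrd1 at the contacts between those mitochondria and the ER.

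Each value below is a log2 probe set value as the authors deposited it, and a difference is the mean of the knockout arrays minus the mean of the wildtype arrays on that scale, with the standard error (SE) of a limma fit. A probe set was called when its Benjamini-Hochberg adjusted p over all 23521 probe sets with a single gene symbol was below 0.05. At room temperature 404 probe sets were called, which is 1.72% of those tested. Of these, 303 (1.29%) were higher in the knockout, with differences from 0.45 to 5.05 and a median of 0.98, and 101 (0.429%) were lower, with differences from -1.86 to -0.44 and a median of -0.72. In all 404 the knockout and wildtype arrays did not overlap. The calls were made on the same arrays, so this separation largely follows from the call and adds no support to it. Of all probe sets, 8.76% lay wholly above and 8.62% wholly below. Each label speaks of a mouse, but none says outright that the replicates of a group were different animals; if they were not, the p-values describe technical spread.

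The targeted gene was lower in every knockout array. Sel1l read 7.37, 6.96 and 7.23 in the wildtype arrays and 6.18, 6.09 and 5.92 in the knockout arrays, a difference of -1.12 ± 0.14 (SE, n = 3 against 3, adjusted p = 0.00114). The groups did not overlap. No source used here says whether the probes lie in the deleted exons. In the arrays at 4 °C Sel1l read 6.99, 6.69 and 7.04 in the wildtype and 6.90, 6.73 and 6.54 in those labelled knockout, a difference of -0.19 (adjusted p = 0.605); the difference between these effects was not called (0.94, adjusted p = 0.0862). Other genes separated the groups at 4 °C as labelled: Derl3 was higher in those labelled knockout by 5.97, Sdf2l1 by 5.90 and Hspa5 by 2.71, without overlap.

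Adipocyte genes read alike in both groups: the mean of 15 adipocyte identity genes lay between 10.07 and 10.21 in the 6 arrays, and Ucp1 between 12.38 and 12.77. These values cannot tell whole tissue from isolated brown adipocytes, since both hold adipocyte RNA. Skeletal muscle genes set some arrays apart. The mean of 21 muscle genes such as Acta1, Ckm and Myh4 was 6.06, 6.50 and 6.97 in the wildtype arrays and 6.01, 2.92 and 3.61 in the knockout arrays. Knockout replicates 2 and 3 thus held little muscle RNA, and knockout replicate 1 held nearly as much as the wildtype; all 21 genes had a negative difference (median -2.29) and none was called. Lists of macrophage, lymphocyte, neutrophil and mast cell, endothelial, fibroblast, nerve and red cell markers also had no called member.

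Genes for the making and disposal of secretory proteins were a large share of those that rose. Over 9 lists of ER genes, which hold 206 measured genes, 88 were called higher and 1, Sel1l, lower. These 88 make up 30% of the 293 genes called higher, and 42.7% of the listed genes were called higher against 1.32% of all genes. The lists were chosen with earlier results of these data known, so their shares describe the response and do not test it. Members named below without a call, and Dnajc3, Derl1, Kdelr3, Pgm3 and Sec31a, were in part picked after their values were seen.

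A set of promoters shows what several of the largest rises share outside the arrays. The ER stress response element (ERSE) is CCAAT, 9 free bases and CCACG, a sequence bound by NF-Y and Atf6. It was sought on both strands from 250 bases before to 50 after each RefSeq start of GRCm38.p6. Of the 25 genes with the largest rises, 20 had a promoter sequence and 5 of these held an ERSE. Their windows are chr10:75893217-75893285 (plus strand) for Derl3, chr15:88819495-88819563 (plus) for Creld2, chr12:17266466-17266534 (plus) for Pdia6, chr2:34772000-34772068 (plus) for Hspa5 and chr10:86705508-86705681 (minus) for Hsp90b1. Each is printed 5′ to 3′ on the gene's strand, and capitals mark CCAAT and CCACG, or ATTGG and CGTGG where the element runs the other way.
Derl3: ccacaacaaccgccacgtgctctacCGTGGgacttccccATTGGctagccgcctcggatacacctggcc
Creld2: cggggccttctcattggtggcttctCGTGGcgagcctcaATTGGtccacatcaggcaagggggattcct
Pdia6: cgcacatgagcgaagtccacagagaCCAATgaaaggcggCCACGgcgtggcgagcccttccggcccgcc
Hspa5: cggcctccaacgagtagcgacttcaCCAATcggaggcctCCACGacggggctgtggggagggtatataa
Hsp90b1: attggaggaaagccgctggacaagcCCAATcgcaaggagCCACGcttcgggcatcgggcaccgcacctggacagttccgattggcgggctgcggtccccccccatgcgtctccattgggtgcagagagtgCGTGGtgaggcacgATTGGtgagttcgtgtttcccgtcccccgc

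The elements began 156, 126, 98 and 65 bases before the start of Derl3, Creld2, Pdia6 and Hspa5, and Hsp90b1 held a pair, at 212 and 107 bases. Among all 16990 genes with a promoter sequence, 29 (0.171%) held an ERSE. Among the 106 such genes that were called and at least 2-fold higher, 10 did (9.43%), which adds Dnajc3, Ero1b, Calr, Syvn1 and Canx to the 5 printed, and among the 79 called lower none did. The core of the Xbp1 site, called UPRE here and searched as TGACGTG, was held by 2.55% of all genes, 13.0% of the 231 called higher and 1.27% of those called lower. TGACGTG can share its last letters with the CGTGG of an ERSE that runs the other way. The Atf4 site core, CARE, was searched as TGATG, a free base and AA. It was held by 3.92% of all genes, 5.63% of those called higher and 5.06% of those called lower. Trib3, Pck2 and Fgf21 were among the 13 holders called higher, as were Olfr734 and Gbp3. The 4 holders called lower were Apoe, Nmb, Prox2 and Trim24. A match is a run of letters and does not show that a factor was bound.

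**Figure D1:**
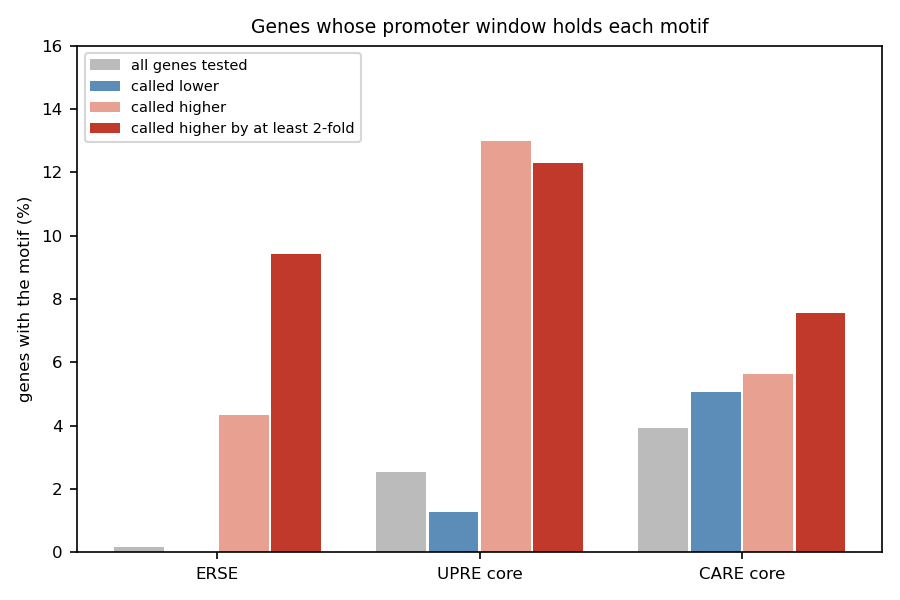
Share of genes (%, vertical axis) whose RefSeq promoter window holds each of 3 motifs, for all genes tested, genes called lower, genes called higher and genes called at least 2-fold higher in the knockout at room temperature. The ERSE bar rises from 0.171% of all genes to 9.43% of the genes called at least 2-fold higher, and the CARE bars lie between 3.92% and 7.55%.

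Genes of protein entry into the ER rose together. Of 25 measured genes of the signal recognition particle, its receptor, the translocon and the signal peptidase, 15 were called higher and none lower. Their median difference was 0.69, against -0.01 over all probe sets, and 22 of the 25 lay wholly above the wildtype. Among all probe sets 1.29% were called higher and 8.76% lay wholly above. Srpr, the docking subunit of the receptor for the signal recognition particle, read 8.59, 8.78 and 8.73 in the wildtype and 10.22, 10.51 and 10.33 in the knockout. The groups were far apart, with a difference of 1.65 ± 0.11 (3.14-fold, adjusted p = 5.25e-06). Sec61a1, the channel itself, rose by 1.20 ± 0.10, from 8.16, 8.24 and 8.20 to 9.25, 9.47 and 9.46 (adjusted p = 4.45e-05). Its small subunit Sec61g rose by 1.61 (adjusted p = 9.05e-05), the other receptor subunit Srprb by 1.17, the signal peptidase subunit Spcs2 by 1.23 and the translocon-associated Ssr2 by 1.00. Some partners in the same complexes did not pass: Srp68, of the recognition particle, had a difference of -0.02 (adjusted p = 0.975) and Tram2 of -0.10. The count of 15 fell to 9 without knockout replicate 2, to 8 with wildtype replicate 3 moved to 4 °C and to 8 with the muscle mean as a covariate.

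The enzymes that build and attach N-glycans moved the same way, at several steps. Of 30 measured, 14 were called higher and none lower (median 0.58). Stt3a, the catalytic subunit that glycosylates chains as they enter the ER, read 8.06, 8.03 and 7.98 in the wildtype and 9.50, 9.87 and 9.58 in the knockout (1.63 ± 0.11, adjusted p = 5.65e-06). For Stt3b, the catalytic subunit of the other form of the transferase, the difference was 0.46 (adjusted p = 0.210); whether the 2 differences differ was not tested. Magt1, a subunit of the Stt3b form, rose by 1.44 (adjusted p = 8.96e-06), so members of both forms were called. At the start of the route, Gfpt1, the entry enzyme of hexosamine synthesis, rose by 1.33 from 6.10, 6.15 and 6.15 to 7.28, 7.68 and 7.43, and Pgm3, a later enzyme of that route, was also called. Dpagt1, which puts the sugar on dolichol that begins the glycan, rose by 1.15 (adjusted p = 0.000456). Slc35b1, which carries ATP into the ER lumen, rose by 1.69 ± 0.11, from 6.89, 6.69 and 6.74 to 8.34, 8.65 and 8.41 (adjusted p = 5.25e-06). The dolichol phosphate mannose synthase genes Dpm1, Dpm2 and Dpm3 had differences of -0.10, 0.10 and 0.02, none of them called.

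**Figure D2:**
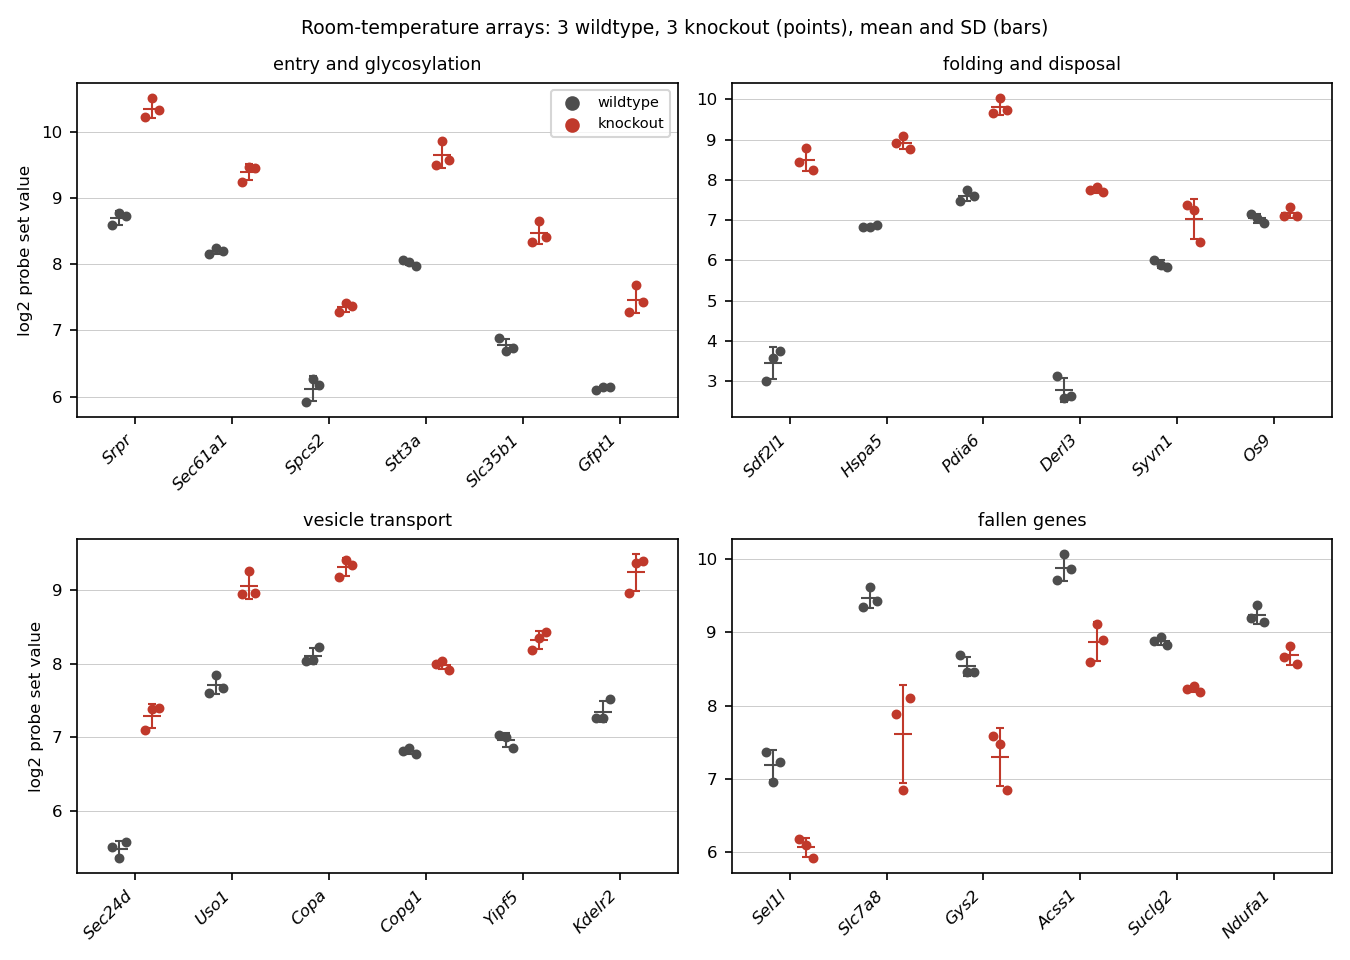
Log2 probe set values (vertical axis) in the 3 wildtype and 3 knockout arrays at room temperature for genes of ER entry and glycosylation, folding and disposal, vesicle transport, and genes that fell. Points are arrays, bars the mean and SD of 3; the groups are apart for every gene drawn except Os9, where they overlap.

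Folding helpers held the largest single rise. Of 19 measured heat shock chaperones of the ER and their partners, 10 were called higher and all 19 had a positive difference (median 0.73). Sdf2l1, a partner of the chaperone BiP, read 3.01, 3.58 and 3.76 in the wildtype and 8.44, 8.79 and 8.25 in the knockout, 33.0-fold apart (5.05 ± 0.20, adjusted p = 5.31e-08). BiP itself, Hspa5, read 6.82, 6.83 and 6.89 against 8.91, 9.08 and 8.76 (2.07 ± 0.14). For both genes the knockout arrays lay far above every wildtype array. Manf, a secreted and ER-retained protein that binds BiP, rose from 2.42, 2.03 and 2.10, about the array median of 2.03 to 2.09, to 4.25, 4.41 and 4.03 (2.05 ± 0.14). Hsp90b1, the glucose-regulated chaperone of the ER lumen, rose by 2.07, Hyou1, which exchanges nucleotide on BiP, by 1.87, and the J-protein Dnajb11 by 1.70. In contrast, Serpinh1, the collagen chaperone, had a difference of 0.25 (adjusted p = 0.649), and 28 collagen and matrix genes had no called member.

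A minority of the genes of disulfide formation rose. Of 19 measured 6 were called higher, with a list median of 0.26: Ero1a, Ero1b, Pdia6, Pdia3, P4hb and Txndc5. Ero1a, which oxidises the isomerases, read 6.88, 7.09 and 6.96 in the wildtype and 9.18, 10.45 and 9.36 in the knockout (2.68 ± 0.27, adjusted p = 0.000138), and knockout replicate 2 stood above its group. A further probe set of Ero1a gave 2.44. Pdia6 rose by 2.20 ± 0.12, from 7.48, 7.75 and 7.60 to 9.66, 10.03 and 9.73. Pdia3, the isomerase that works with the lectins, rose by 1.57 and P4hb by 1.30. Those lectins rose too: Calr by 1.28, from 9.68, 9.48 and 9.63 to 10.96, 10.91 and 10.76, and Canx by 1.11.

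Of the degradation machinery that Sel1L belongs to, a minority of genes moved. Of 29 measured, 7 were called higher and Sel1l lower (median 0.19). Sdf2l1, named above among the folding helpers, is 1 of the 7 and so counts in both lists. The 7 became 4 without wildtype replicate 3 or without knockout replicate 2, and 4 with wildtype replicate 3 moved to 4 °C. Derl3, a channel-like partner of Hrd1, read 3.12, 2.58 and 2.64 in the wildtype and 7.75, 7.83 and 7.69 in the knockout (4.97 ± 0.15, 31.4-fold, adjusted p = 5.00e-09), the smallest adjusted p among the named genes. Selenos, which links Derlins to the p97 ATPase, rose by 1.42 and Derl2 by 0.74 (lost without 3 of 12 arrays), and Derl1 was also called. The ligase Syvn1 read 6.01, 5.88 and 5.84 against 7.37, 7.26 and 6.46, with knockout replicate 3 the lowest of its group (1.12 ± 0.23, adjusted p = 0.0249); this call was lost without 5 of the 12 arrays taken singly, with a highest adjusted p of 0.0906 without knockout replicate 2. The extraction motor and its cofactors were near 0: Vcp had a difference of 0.01, Ufd1 of -0.02 and Nploc4 of 0.18. Herpud1 had 0.19 (adjusted p = 0.683). Os9, the lectin that hands glycoproteins to Sel1L, read 7.16, 7.05 and 6.92 in the wildtype and 7.10, 7.33 and 7.10 in the knockout, overlapping groups (0.13, adjusted p = 0.693), while Edem1, the mannosidase-like protein of the step before it, rose by 1.30 (adjusted p = 0.000138). The 33 proteasome subunit genes had no called member and a median of -0.02.

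Vesicle transport between the ER and the Golgi was the list with most calls. Of 47 measured genes of COPII (export), COPI (return), cargo receptors and tethers, 29 were called higher and none lower. All 47 differences were positive (median 0.77) and 42 lay wholly above the wildtype. Set beside these, 1.29% of all probe sets were called higher and 8.76% lay wholly above, and 11383 of all 22180 genes had a negative difference. The mean over the list was 6.62, 6.69 and 6.67 in the wildtype arrays and 7.38, 7.57 and 7.46 in the knockout arrays. Knockout replicate 1, with muscle RNA near the wildtype level, had the lowest of the 3 knockout means. The part of muscle RNA in the rise was not tested. The COPII cargo adaptor Sec24d read 5.51, 5.36 and 5.58 against 7.10, 7.38 and 7.40 (1.81 ± 0.13, adjusted p = 1.20e-05). Kdelr2, the receptor that returns escaped ER chaperones, read 7.27, 7.26 and 7.52 against 8.96, 9.38 and 9.40 (1.90 ± 0.15, adjusted p = 2.29e-05). Its relative Kdelr1 had a difference of 0.10 (adjusted p = 0.837), and Kdelr3 was called. Uso1, a tether of ER-derived vesicles, rose by 1.35, the COPI coat subunits Copa and Copg1 by 1.21 and 1.17, and Yipf5 by 1.37. Of the 4 Sec24 adaptors only Sec24d was called, with Sec24a at 0.64 (adjusted p = 0.0537), Sec24c at 0.45 and Sec24b at 0.06. Outside the list, and named after its value was seen, Sec31b was called lower (-0.64), while Sec31a, the other outer coat gene, was called higher. Of 40 genes of the list with a promoter sequence, 8 held the UPRE core (20.0%, against 2.55% of all genes) and none an ERSE. The count of 29 became 22 with wildtype replicate 3 moved to 4 °C, 21 with the muscle covariate and 15 when knockout replicate 1 alone was set against the wildtype, a fit with 1 array in that arm, which takes its spread from the other groups.

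**Figure D3:**
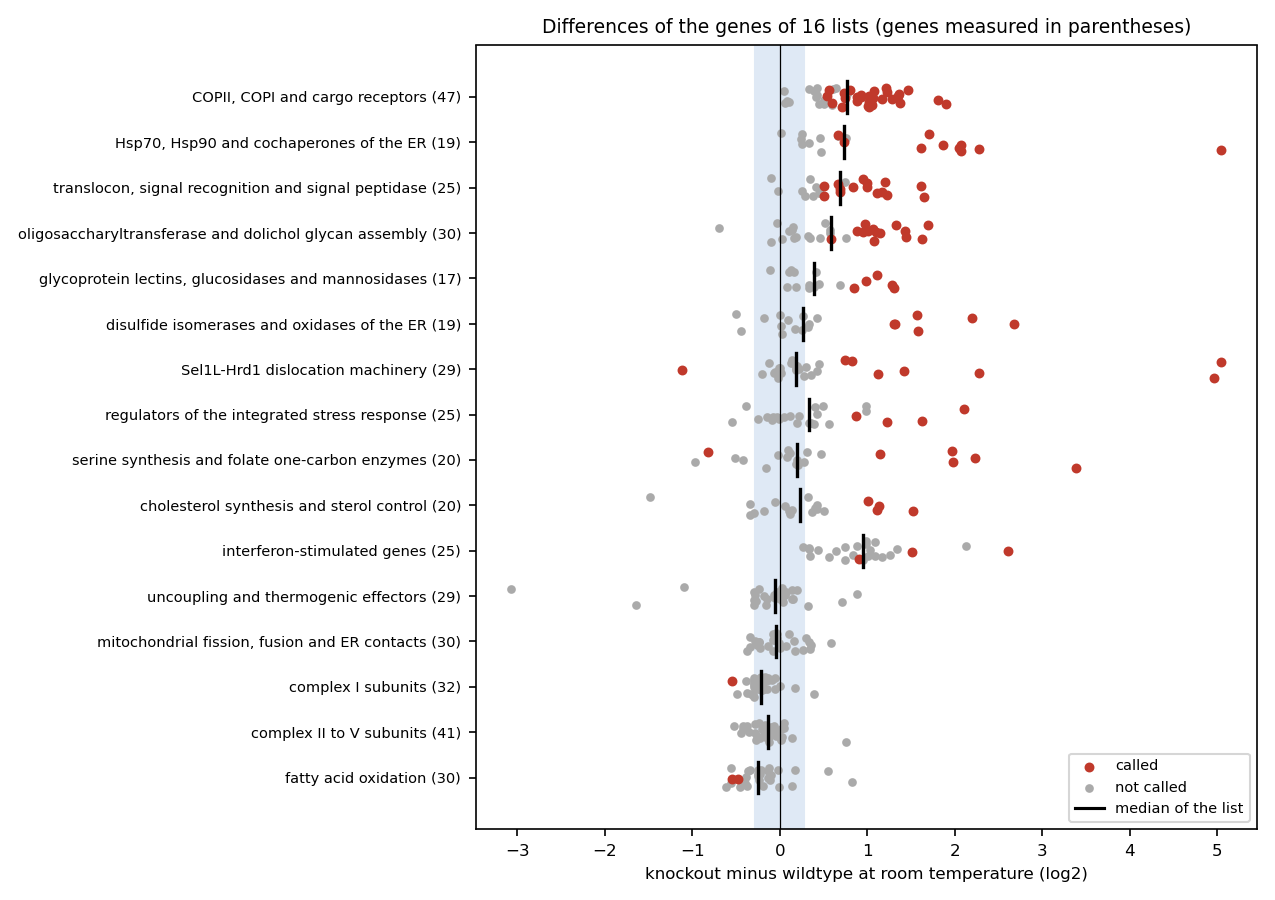
Knockout minus wildtype difference at room temperature (log2, horizontal axis) for each measured gene of 16 lists; red points were called, grey points were not, black bars are list medians and the blue band (-0.28 to 0.28) spans all probe sets but the highest 10% and the lowest 10%. The COPII and COPI genes all lie right of 0 with a median of 0.77, and complex I genes lie mostly just left of 0 with a median of -0.22.

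Of the sensors themselves, Perk was called and Ire1 was not. Eif2ak3 read 5.37, 5.55 and 5.38 in the wildtype and 6.38, 6.26 and 6.26 in the knockout (0.87 ± 0.14, adjusted p = 0.00549), and the groups were well apart. Ern1 read 5.02, 4.82 and 5.06 against 5.26, 5.64 and 5.39, again without overlap, for a difference of 0.47 (adjusted p = 0.125), and Atf6 had 0.72 (adjusted p = 0.0612). Whether these 3 differ from each other was not tested. Xbp1, the transcription factor that Ire1 activates by splicing, rose by 1.47 ± 0.14, from 6.60, 6.67 and 6.77 to 7.90, 8.43 and 8.11 (adjusted p = 9.60e-05); the probe set does not tell the spliced form from the unspliced. Creb3, a membrane-bound factor of the Golgi and ER, rose by 0.78 (adjusted p = 0.00163). In all, 3 of 16 sensors and factors were called higher.

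The integrated stress response moved in part. Of 25 regulators, 4 were called higher (Eif2ak3, Atf5, Ddit3 and Trib3) and none lower. Atf5, a factor made under Perk signalling, read 6.89, 7.10 and 6.93 in the wildtype and 8.52, 8.72 and 8.58 in the knockout (1.63 ± 0.11, adjusted p = 5.65e-06). Ddit3, known as Chop, rose by 1.22, from 5.13, 4.87 and 4.54 to 5.95, 6.11 and 6.16 (adjusted p = 0.000555). Trib3, the pseudokinase downstream of both, rose by 2.11 (adjusted p = 0.00159, and 0.106 with wildtype replicate 3 moved to 4 °C). Atf4, whose protein is controlled mainly by translation, read 6.78, 6.50 and 7.07 against 7.31, 6.99 and 7.74, overlapping groups, with a difference of 0.56 (adjusted p = 0.193).

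Some of the amino acid and one-carbon genes that this response commands were also higher. Of 20 measured genes 5 were called higher and 1 lower, with a median of 0.20. Mthfd2, the mitochondrial folate dehydrogenase, read 2.61, 3.33 and 4.13 in the wildtype and 6.73, 6.81 and 6.71 in the knockout (3.39 ± 0.28, adjusted p = 4.10e-05), tight in the knockout and spread in the wildtype. Psat1, of serine synthesis, rose by 2.23 from values about the array median (1.96, 2.44 and 2.08), and Aldh18a1, which begins proline synthesis, by 1.98. Pck2, the mitochondrial form of phosphoenolpyruvate carboxykinase, read 5.50, 6.22 and 5.89 against 7.43, 8.01 and 8.07 (1.97 ± 0.19, adjusted p = 0.000107). The fifth called gene was Aldh1l2, at 1.14. The cytosolic enzyme Shmt1 fell by 0.82 (adjusted p = 0.00761, and 0.165 with wildtype replicate 3 moved). Asparagine synthetase, Asns, a standard target, had a difference of 0.47 (adjusted p = 0.0800). Of 19 cytosolic tRNA synthetases 2 were called, Wars at 1.49 and Eprs at 1.07, and of 16 mitochondrial ones none.

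Amino acid transporters went both ways. Of 25 measured, Slc7a1 and Slc7a5 were called higher and Slc7a8 lower. Slc7a8, a light chain for neutral amino acids, had the largest fall of all calls: it read 9.35, 9.62 and 9.43 in the wildtype and 7.88, 6.85 and 8.10 in the knockout (-1.86 ± 0.25, adjusted p = 0.00176). Knockout replicate 2 was lowest, and no knockout array reached the wildtype. Slc7a5, which carries similar amino acids, rose by 1.00 from 3.76, 3.46 and 3.54 to 4.21, 4.88 and 4.67 (adjusted p = 0.0206), and Slc7a1, for cationic amino acids, by 1.11. Both of these calls were lost without some arrays (4 and 5 of 12, highest adjusted p 0.0857 and 0.117, each without wildtype replicate 2). They were also lost with the muscle covariate, at differences of 1.03 and 1.22, while that of Slc7a8 held under every setting tried.

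Of 28 secreted factors of brown fat, 3 were called higher and 1 lower, against 1.29% and 0.429% of all probe sets. Lcn2, a lipid-binding acute-phase protein, read 4.53, 4.14 and 3.96 in the wildtype and 7.42, 5.39 and 6.58 in the knockout (2.25 ± 0.36, adjusted p = 0.00614, and 0.0544 with wildtype replicate 3 moved). Fgf21, a hormone that the integrated stress response raises, read 1.57, 2.13 and 2.79 against 4.40, 2.90 and 4.06; knockout replicate 2 lay just above the highest wildtype array (1.63 ± 0.35, adjusted p = 0.0340). The Fgf21 call was lost without 7 of 12 arrays, with a highest adjusted p of 0.129 without knockout replicate 3. Angptl8, a regulator of lipoprotein lipase, rose by 0.68 (adjusted p = 0.0389, lost without 8 of 12 arrays). Apoe fell by 0.73, from 5.85, 5.64 and 5.66 to 5.12, 4.80 and 5.05 (adjusted p = 0.00815, and 0.143 with wildtype replicate 3 moved). The adipocyte hormones Adipoq and Lep had differences of -0.21 (adjusted p = 0.408) and -0.19 (adjusted p = 0.961), the latter with values from 2.58 to 6.56 within the wildtype.

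Few genes of lipid synthesis and storage were called, and those were higher. Scd3, a fatty acid desaturase, read 1.10, 1.47 and 0.73 in the wildtype, below the array medians, and 5.86, 5.08 and 5.73 in the knockout (4.46 ± 0.26, adjusted p = 3.43e-06). Its relative Scd1 stayed between 11.47 and 11.80 in the 6 arrays (0.08, adjusted p = 0.905); the family is alike in sequence, and cross-hybridisation was not tested. Fads3, another desaturase-like gene, rose by 1.17 (adjusted p = 0.000781, and 0.142 with wildtype replicate 3 moved). Of 43 genes of triglyceride synthesis, droplets, lipolysis and uptake, 3 were called, all higher. These were Gpat3, of the opening step of glycerolipid synthesis, at 1.15, Abhd6, a monoacylglycerol lipase, at 0.83, and Plin2, a droplet coat protein, at 0.65. With wildtype replicate 3 moved, Abhd6 and Plin2 lost their calls (adjusted p = 0.111 and 0.346). Plin2 also lost its call with the muscle covariate (adjusted p = 0.0677). Of 20 cholesterol genes 4 were called higher, Sqle by 1.52, Fdps by 1.13, Cyp51 by 1.11 and Lss by 1.01, and none lower. These are enzymes of neighbouring steps of sterol synthesis. The count was 2 without knockout replicate 2 and 1 with wildtype replicate 3 moved to 4 °C. None of 15 lipogenesis genes was called: Fasn read 10.86, 11.29 and 10.62 against 9.77, 11.06 and 9.46, so that its difference of -0.82 was smaller than the range within the knockout.

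Mitochondrial genes had mostly small negative differences and few calls. Over 5 mitochondrial lists of 149 measured genes, 117 differences were negative, 4 genes were called lower and 1 higher, against 11383 negative, 95 called lower and 293 called higher among all 22180 genes. Of 14 endothelial markers, 11 were negative with a median of -0.31, and their part in these values was not tested. Of 32 complex I subunits 30 were negative (median -0.22) and 19 lay wholly below the wildtype, a share set beside 8.62% of all probe sets. The list mean was 8.67, 8.63 and 8.58 in the wildtype and 8.44, 8.41 and 8.41 in the knockout. The 3 knockout arrays lay below every wildtype array, and the median with the muscle covariate was -0.20. A single subunit, Ndufa1, was called, from 9.20, 9.38 and 9.14 to 8.67, 8.82 and 8.57 (-0.55 ± 0.11, adjusted p = 0.0184); the call was lost without 4 of 12 arrays, with a highest adjusted p of 0.0814 without wildtype replicate 2. Of 41 subunits of complexes II to V none was called (median -0.14).

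Few genes of fatty acid oxidation and the citrate cycle were called. Of 30 oxidation genes, with a median of -0.24, 26 had a negative difference, against 11383 of all 22180 genes, and 2 were called, Acads, the short-chain acyl-CoA dehydrogenase, at -0.55 and Hadh, of a later step, at -0.48; with the muscle covariate the differences were -0.53 and -0.43 and no longer called (adjusted p = 0.116 and 0.229). Without single arrays the calls were lost in 4 and 7 of 12 fits. Of 34 genes of the citrate cycle and branched-chain catabolism Suclg2 and Ivd were called lower; Ivd, of leucine breakdown, at -0.80, lost its call without 8 of 12 arrays (highest adjusted p 0.153, without knockout replicate 3). Suclg2, the GTP-forming succinyl-CoA ligase subunit, read 8.88, 8.94 and 8.83 against 8.23, 8.27 and 8.19 (-0.65 ± 0.10, adjusted p = 0.00497, and 0.0555 with the muscle covariate). The groups did not overlap, and the knockout arrays differed little among themselves. Of the mitochondrial chaperones and proteases, Lonp1, the matrix protease, rose by 0.66 (adjusted p = 0.0264, lost without 5 of 12 arrays) and Spg7, a subunit of an inner membrane protease, fell by 0.81 (adjusted p = 0.00761, 0.0699 with the muscle covariate and 0.0830 with wildtype replicate 3 moved).

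Genes of mitochondrial shape and of contacts with the ER, the subject of the study's title, gave no call among 30 measured (median -0.04). The fusion gene Mfn2, also found at ER contacts, read 8.89, 8.90 and 8.96 against 8.87, 8.80 and 8.68 (-0.13, adjusted p = 0.673). Opa1, of inner membrane fusion, had -0.24 and Dnm1l, of fission, -0.08. Over all probe sets the smallest called differences at room temperature were 0.45 upward and -0.44 downward. These are no detection limit, since differences in this list reached 0.59 without a call. Changes in these messages may thus have been missed with 3 arrays a group.

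No thermogenic gene was called at room temperature. Ucp1 read 12.60, 12.38 and 12.63 in the wildtype and 12.77, 12.47 and 12.48 in the knockout (0.04 ± 0.11, adjusted p = 0.942), with overlapping groups. Of 29 measured genes 13 were positive and 16 negative, with a median of -0.06. Elovl3, an elongase of brown fat, read 9.64, 9.46 and 9.49 against 10.54, 10.92 and 9.77 (0.88, adjusted p = 0.0669). Dio2, which activates thyroid hormone, had 0.71 (adjusted p = 0.411) and the coactivator Ppargc1a 0.14 (adjusted p = 0.896). The most negative members were Atp2a1 at -3.07 and Ckmt2 at -1.64, named after their values were seen. Both are also expressed in muscle and were low in the muscle-poor knockout replicates 2 and 3 alone. The part of muscle RNA in these 2 differences was not tested.

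Interferon-stimulated genes were higher in the knockout with uneven replicates. All 25 measured had a positive difference (median 0.95) and 19 lay wholly above the wildtype, a share to set beside 8.76% of all probe sets, but 3 were called: Usp18 at 2.61, Rtp4 at 1.51 and Gbp3 at 0.90. Usp18, the feedback inhibitor of interferon signalling, read 3.04, 2.56 and 3.71 in the wildtype and 6.68, 4.33 and 6.13 in the knockout (adjusted p = 0.0184). The list mean was 3.70, 3.60 and 3.87 in the wildtype and 5.08, 4.09 and 4.89 in the knockout, with knockout replicate 2 closest to the wildtype. The number of calls rested on single arrays: 14 without knockout replicate 2, 2 without wildtype replicate 3, 1 without wildtype replicate 1, and 0 without wildtype replicate 2, knockout replicate 1 or knockout replicate 3. No member was called at 4 °C, where the median was 0.21. Markers of neutrophils and mast cells, with 12 of 13 differences positive and none called, had means of 2.24, 2.09 and 2.20 in the wildtype and 2.62, 2.03 and 2.70 in the knockout, again with knockout replicate 2 the lowest of its group. Macrophage markers had a mean of 4.43 to 5.10 in the wildtype and 4.74 to 4.92 in the knockout. The part of these cells in the result was not tested.

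**Figure D4:**
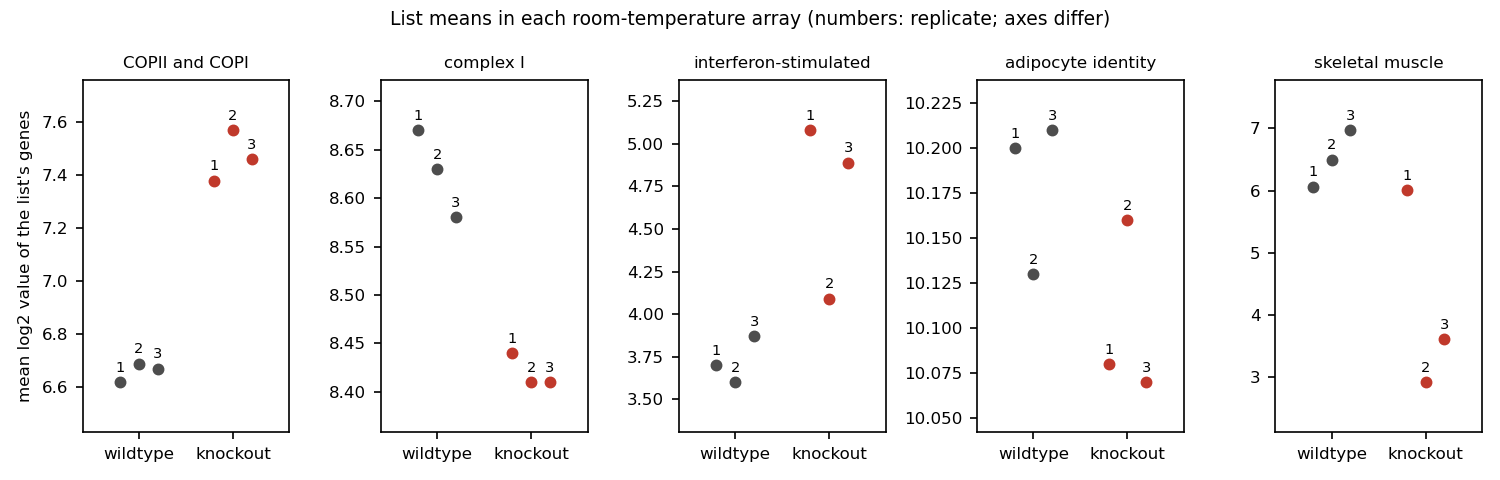
Mean log2 value over the genes of 5 lists (vertical axes, which differ between panels) in each room-temperature array, with the replicate number beside each point. COPII and COPI genes are higher and complex I genes lower in all 3 knockout arrays, while the skeletal muscle mean is low in knockout replicates 2 and 3 alone.

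The remaining falls were smaller and less firm than the rises. After Slc7a8 the largest were Acot1, an acyl-CoA thioesterase, at -1.63, Txlnb, a gene of muscle, at -1.55, and Tmem150a at -1.45. Gys2, the glycogen synthase of liver and fat, read 8.69, 8.46 and 8.46 in the wildtype and 7.58, 7.48 and 6.85 in the knockout (-1.23 ± 0.21, adjusted p = 0.00944). Acss1, which makes acetyl-CoA from acetate in mitochondria, read 9.72, 10.07 and 9.86 against 8.59, 9.12 and 8.90 (-1.02 ± 0.14, adjusted p = 0.00249), and a further probe set gave -0.54. Its relative Acss3, for propionate, fell by 0.93. C1qtnf12, a secreted protein also called adipolin, fell by 1.16, Adh1, an alcohol dehydrogenase, by 0.96 and Gdap10 by 1.05. With the muscle covariate the differences were -0.94 for Gys2 and -1.42 for Acot1, while C1qtnf12 fell by 1.00. These 3 calls were lost (adjusted p = 0.0904, 0.139 and 0.130). Also lost were those of Txlnb (-0.91), Tmem150a (-1.11), Acss3 (-1.06) and Adh1 (-1.04), with adjusted p = 0.231, 0.0527, 0.0571 and 0.0925. Without single arrays the Txlnb call was lost in 8 of 12 fits. Slc7a8 (-1.79), Acss1 (-1.06) and Gdap10 (-0.98) kept their calls with the covariate. Acot1 belongs to a family of near-identical neighbours, and cross-hybridisation was not tested.

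Kng1 was the only called gene of a list of 9 made of Adipoq, genes beside it on chromosome 16 and Tbx18. Kng1, which encodes a kininogen, read 1.32, 1.32 and 1.11 in the wildtype, below the array medians, and 2.34, 2.99 and 3.40 in the knockout (1.66 ± 0.22, adjusted p = 0.00142). Its neighbour Kng2 read 7.67, 7.71 and 8.44 against 8.55, 8.59 and 8.79, apart by 0.70 (adjusted p = 0.115). The Cre transgene of the knockout uses the Adipoq promoter, and the wildtype mice lack that transgene, so Sel1L loss and the transgene cannot be told apart for any gene here.

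The same genotypes at 4 °C gave a second reading. There 1365 probe sets were called (5.80% of those tested), 850 higher (3.61%) and 515 lower (2.19%). Of the 303 probe sets called higher at room temperature, 248 were called higher at 4 °C too, which is 81.8% of the room-temperature calls and 29.2% of those at 4 °C. Of the 101 called lower, 27 were (26.7% of the room-temperature calls and 5.24% of those at 4 °C). Stt3a, for example, rose by 1.63 at room temperature and 1.73 at 4 °C, Srpr by 1.65 and 1.75, and Scd3 by 4.46 and 3.67. Slc7a8 fell by 1.86 at room temperature and had -0.28 at 4 °C (adjusted p = 0.681), and the difference between the 2 effects was not called (adjusted p = 0.102).

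Tests of the difference between the effects picked out few genes. Over all probe sets 72 (0.306%) were called, among them 25 of the 404 called at room temperature. Of the 21 that had risen, 18 rose more at 4 °C: Fkbp11, a prolyl isomerase of the ER, rose by 1.61 at room temperature and 3.87 at 4 °C, and Creld2, an ER calcium-binding protein, by 2.28 and 4.33. The reverse held for Atf5, with 1.63 and 0.47 (difference of effects -1.16, adjusted p = 0.00893), and for Angptl8, with 0.68 and -0.68. All 4 of the falls in this set had a positive difference at 4 °C, such as Ssh2, a cofilin phosphatase, with -0.84 and 0.32. Os9, with 0.13 at room temperature, had 1.05 at 4 °C (adjusted p of the difference 0.0294).

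**Figure D5:**
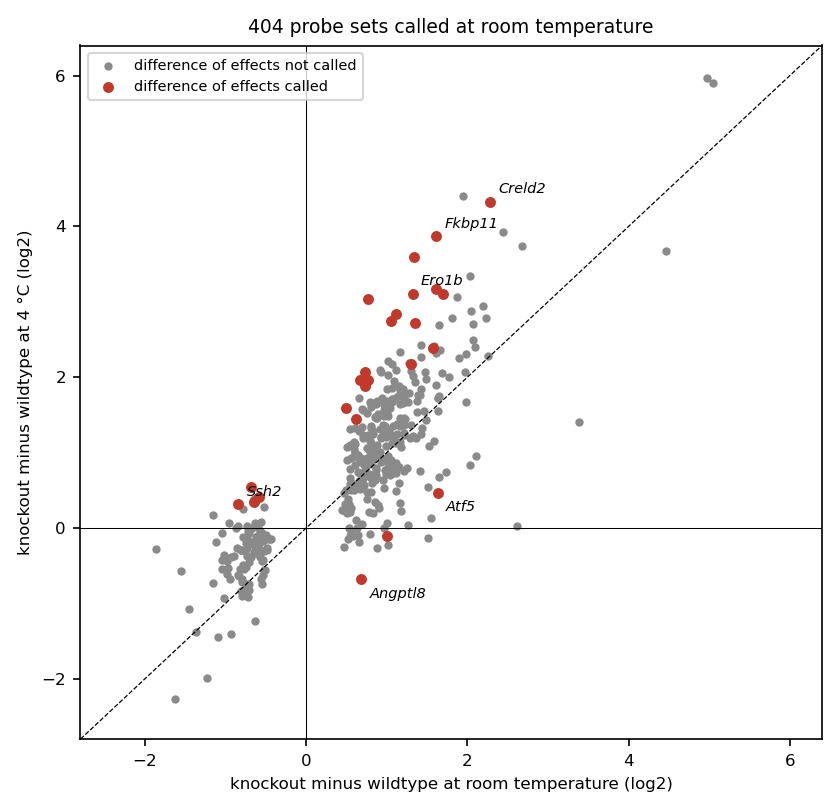
Knockout minus wildtype difference (log2) at room temperature (horizontal axis) and at 4 °C (vertical axis) for the 404 probe sets called at room temperature; the dashed line marks equal differences and red points are the 25 whose effects were called different. Of the 303 rises 290 lie above 0 at 4 °C, and of the 101 falls 85 lie below 0.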

How the data were processed

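Brown adipose tissue RNA was measured on microarrays, and the deposited table holds log2 values for 41345 probe sets on 12 arrays (3 per group), made with RMA per the submitters' processing notes; no other step is stated. Array medians ran from 2.03 to 2.09. The 23521 probe sets with exactly 1 gene symbol in the platform annotation were used (1814 had several, 16010 none), and 23328 of their gene identifiers were found in RefSeq.

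All 12 arrays were fitted in limma 3.58.1 (R 4.3.3) with 4 group means, empirical Bayes and Benjamini-Hochberg adjustment (residual df 8, median SE 0.14). The 3 arrays per group limit the precision. On simulated data with 23521 probe sets, 85 of 100 changes of log2 1 and 97 of 100 of log2 2 were recovered, with 13 false calls. The simulated noise was independent for each probe set, with no effect shared across an array. The real arrays differ in muscle RNA, so these rates may not hold for them.

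A listed gene was read at its brightest probe set. Named genes are Sel1l, the 25 largest rises and falls, up to 6 called members per list, standard marker genes, and members without a call or of special note, marked as picked after their values were seen. The 49 lists and the comparison were chosen with earlier results of these data known. Promoters are RefSeq GRCm38.p6 windows of 300 bases. Alternatives tried: fewer arrays, each array left out, wildtype replicate 3 moved, replicate block, muscle covariate, other filters and scalings, and knockout replicate 1 alone, the last chosen after seeing the data.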

Additional observations from a re-analysis of the deposited data

Results flagged for a closer look

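In 11 genes named above the effect of the knockout differed between room temperature and 4 °C by a test of the difference itself (limma, adjusted over all probe sets). The differences of effects, 4 °C minus room temperature, were 2.25 for Fkbp11, 2.05 for Creld2, 1.78 for Ero1b, 1.71 for Syvn1, 1.42 for Dnajb11, 0.92 for Os9, 0.87 for P4hb and 0.82 for Pdia3, genes of the ER, and each lay higher in the knockout by more at 4 °C; Os9 was not called at room temperature (0.13). The value was 1.16 for Ssh2, which fell at room temperature and had 0.32 at 4 °C (adjusted p = 0.240). It was -1.16 for Atf5 and -1.36 for Angptl8, whose rises were called at room temperature and were smaller or turned at 4 °C.

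With each of the 12 arrays left out in turn, the calls for Fkbp11 and Atf5 held (highest adjusted p 0.0388 and 0.0346). The other 9 lost theirs without at least 3 arrays, Dnajb11 without 3 and Syvn1 without 11, with highest adjusted p-values between 0.0744 and 0.123. For all 9 the array behind that highest value was the second knockout replicate of the cold group. The call for Atf5 ended with wildtype replicate 3 moved to 4 °C (adjusted p = 0.721), and that for Fkbp11 did not (adjusted p = 0.0336). Sel1l itself had a difference of -0.19 at 4 °C, which was not called (adjusted p = 0.605).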

How the results depend on the processing

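None of the 117 named genes that were called changed sign under any alternative. Of these, 48 kept the call throughout, most of them ER, transport and stress response genes; 53 lost it with wildtype replicate 3 moved to 4 °C, 44 with the muscle covariate and 42 in at least 1 fit with an array left out. For knockout against wildtype at room temperature, the 404 calls became 245 (42 lower) with only the 6 room-temperature arrays, 177 (157 higher, 20 lower) with wildtype replicate 3 moved, 184 (160 higher, 24 lower) with the muscle covariate, 263 (44 lower) with all probe sets adjusted together and 160 (142 higher, 18 lower) with knockout replicate 1 alone, whose spread is assumed to be that of the other groups. Calls were 302 higher and 162 lower after repeated quantile normalization. With an array left out calls ranged from 255 (without wildtype replicate 2) to 458, higher from 203 to 323 and lower from 44 to 135; of the room-temperature arrays, all but knockout replicate 2 moved the lower count by over 1.5 times (59, 52 and 58 without wildtype replicates 1, 2 and 3, and 61 and 44 without knockout replicates 1 and 3). The 156 calls of at least 2-fold ranged from 130 to 173.

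The 72 called differences between the effects at the 2 temperatures became 17 with wildtype replicate 3 moved, 39 with the muscle covariate, 21 with all probe sets, 24 with knockout replicate 1 alone, and 21 (without knockout replicate 2 of 4 °C) to 123 (without wildtype replicate 3 of 4 °C) with an array left out; each array but knockout replicate 2 at room temperature moved it by over 1.5 times. Replicate numbers did not pair the arrays: deviations of same-numbered room-temperature arrays correlated at -0.01, 0.11 and -0.01. With the replicate block 362 probe sets were called for knockout against wildtype at room temperature and 47 differences between temperatures. The causes of these changes were not tested, beyond the smaller number of arrays in some fits. No detection calls were used here, so how near background the values about the array median lie is not known.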

Other observations

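Called genes outside the lists, picked after their values were seen, held further parts of the secretory route. Sec22b, a SNARE of ER to Golgi vesicles, rose by 1.38, Golt1b by 1.42, Scfd1, a regulator of those SNAREs, by 1.21, the small GTPase Arf1 by 0.98 and its activator Gbf1 by 1.01, and Arl1, a GTPase of the trans-Golgi, by 1.16. Serp1, which protects nascent chains at the translocon, rose by 1.39, Rrbp1, a ribosome receptor, by 0.89 and Wfs1, the ER membrane protein of Wolfram syndrome, by 1.35. Of sugar metabolism outside the list, Gnpnat1, of the hexosamine route, rose by 1.09, Gmds, of GDP-fucose synthesis, by 1.17 and Nans, of sialic acid synthesis, by 1.00. Ufl1 and Cdk5rap3, of the ligase that attaches Ufm1 to ribosomes at the ER, rose by 0.77 and 1.07.

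Of antigen presentation, Tap1, which carries peptides into the ER, was called higher by 0.83, H2-Q4 by 0.64 and Tapbpl by 1.07; the lymphocyte genes Gzma and Il2rb were called at 1.00 and 0.88, while 11 T and B cell markers had no called member. Syne1, a long linker of the nucleus to the cytoskeleton, is read by 59 probe sets, which disagreed: 1 was called higher (1.10) and 4 lower (-0.73 to -1.05), with 33 positive and 26 negative differences. The neighbouring olfactory receptor genes Olfr734 and Olfr733 were called at 2.03 and 1.74; Olfr734 read 1.67, 1.64 and 1.44 in the wildtype and 2.21, 4.77 and 3.84 in the knockout, and lost its call without 10 of 12 arrays.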
